A study of Mus musculus with 20 samples.

Results

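The Src family kinases and the enzymes that switch them were followed in the diaphragm of mice that had received asbestos fibers or carbon nanotubes in the pleural cavity. The 9 genes were the kinases Src, Fyn, Yes1, Lyn, Fgr, and Lck, the inhibitory kinase Csk, and the phosphatases Ptprc and Ptpn6. They were chosen by name, with earlier results of these data known, and found through the gene symbol that the array files give each probe. They are 9 of the 34797 gene or transcript names on the array. Each had 1 probe among its 55681 noncontrol probes, and all 9 were among the 36920 probes that entered the tests. The mice were females of the C57Bl/6 strain, aged 8 weeks at injection, and all were given 100 μL of saline with 0.5% BSA as the carrier and killed 12 weeks later. The control group received the carrier alone, SFA and LFA received 25 μg of short or long amosite asbestos fibers, and NTS and NTL received 5 μg of short or long carbon nanotubes. There were 4 mice in each of the 5 groups, with 1 array per mouse. Asbestos and nanotubes were given at different doses, so material and dose cannot be told apart in a comparison between them. The RNA came from diaphragm tissue with all its cell types, in which fewer cells of a type and less RNA per cell cannot be told apart, and an array measures the amount of a transcript, not the activity of the kinase it encodes.

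Src family kinases are tyrosine kinases anchored to the inner face of the cell membrane, where they pass on signals from integrins, growth factor receptors, and immune receptors. Csk phosphorylates a tyrosine in their tail and so folds them into a closed, inactive form. Ptprc, known as CD45, removes that phosphate in leukocytes, and Ptpn6, known as SHP-1, is drawn to inhibitory receptors after Src family kinases have phosphorylated them and then shuts the signal down. Src, Fyn, and Yes1 are made in most tissues, Lyn and Fgr mainly in myeloid cells (and Lyn in B cells), and Lck in T cells and NK cells.

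The probes of 3 members show what the arrays bound, since the results for Ptprc, Ptpn6, and Src depend on it. They are printed 5′ to 3′ in lower case, with a stop codon in capitals where the probe holds it, and their positions are those of the array files (NCBI37). The Ptprc probe (chr1:139961083-139961142, minus strand) ends with the stop codon, far from the alternative exons near the other end of the transcript that distinguish the CD45 isoforms. The Ptpn6 probe (chr6:124671114-124671173, minus strand) crosses the stop codon and runs 12 bases past it. The Src probe (chr2:157293336-157294267, plus strand) has 60 bases spread over 932 bases of the genome, so it joins exons and matches spliced RNA.
Ptprc: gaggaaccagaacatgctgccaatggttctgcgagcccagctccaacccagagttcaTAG
Ptpn6: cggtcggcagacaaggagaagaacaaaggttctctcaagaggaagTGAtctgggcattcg
Src: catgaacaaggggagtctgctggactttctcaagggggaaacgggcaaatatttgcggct

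Levels are given as the log2 signal of a probe minus the 75th percentile of its array, so that 0 is the brightness of the 75th percentile spot, and levels of different probes are not compared. This percentile lay between 294 and 996 signal units, with medians of 575 in control, 553 in SFA, 716 in LFA, 455 in NTS, and 816 in NTL. The median difference from control over all tested probes was −0.28 in LFA, −0.25 in NTL, −0.10 in SFA, and −0.06 in NTS (log2), and quantile normalization moved the first 2 of these to −0.08 and −0.09. Correlations between arrays ran from 0.865 to 0.986. Control replicate 2, LFA replicate 3, and NTS replicate 4 had the smallest shares of spots well above background, from 53.0% to 56.3%. The labels number the samples of a group as replicates, and the study's methods give them as separate animals. A gene is said to have risen or fallen where limma's adjusted p (Benjamini-Hochberg over all 36920 probes) was under 0.05.

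Lyn and Fgr, the kinases of myeloid cells, rose with both long fibers. Lyn read −2.42, −2.68, −2.23, and −2.72 in the control mice, −1.70, −1.16, −1.43, and −1.33 in LFA, and −1.36, −1.22, −1.60, and −1.45 in NTL. The 8 long-fiber arrays thus lay above all control arrays. Lyn was at −1.98, −1.98, −2.30, and −2.47 in SFA and at −2.64, −3.02, −2.68, and −2.25 in NTS, so that both short-fiber groups overlapped control and stayed below every long-fiber array. The difference from control was 1.11 ± 0.22 (log2, SE, n = 4 mice per group, adjusted p = 0.00899 in limma) in LFA and 1.10 ± 0.22 (adjusted p = 0.00453 in limma) in NTL, or 2.16-fold and 2.15-fold. Against the short fibers, Lyn was higher by 1.24 ± 0.22 in NTL than in NTS (adjusted p = 0.00146 in limma), whereas the 0.78 ± 0.22 between LFA and SFA did not pass (adjusted p = 0.104 in limma) although the groups did not overlap.

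Fgr, which works beside Lyn downstream of integrins and Fc receptors in phagocytes, had the largest differences of the 9 genes between long fibers and control. It read −2.73, −1.40, −1.35, and −2.68 in control, −1.002, 0.62, −0.71, and 0.35 in LFA, and −0.25, 0.32, −0.04, and 0.04 in NTL. The LFA arrays fell into a lower and a higher pair, yet all 4 lay above control. In SFA it was at −1.56, −2.04, −1.64, and −2.21, and in NTS at −2.21, −3.01, −2.38, and −2.11, which is within or just below the control range. Fgr rose by 1.86 ± 0.39 in LFA (3.62-fold, adjusted p = 0.0135 in limma) and by 2.06 ± 0.39 in NTL (4.16-fold, adjusted p = 0.00344 in limma). It was also higher by 1.68 ± 0.39 in LFA than in SFA (adjusted p = 0.0395 in limma) and by 2.44 ± 0.39 in NTL than in NTS (adjusted p = 0.000661 in limma). Without LFA replicate 2 the LFA difference from control was 1.59 (adjusted p = 0.0575 in limma), and the LFA difference from SFA missed the threshold without any 1 of 10 arrays. Lyn kept its calls against control with each array left out in turn. With only the control and LFA arrays in the fit, the LFA differences of Lyn (adjusted p = 0.0613), Fgr (0.0845), and Ptpn6 (0.0798) did not pass in limma.

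**Figure D1:**
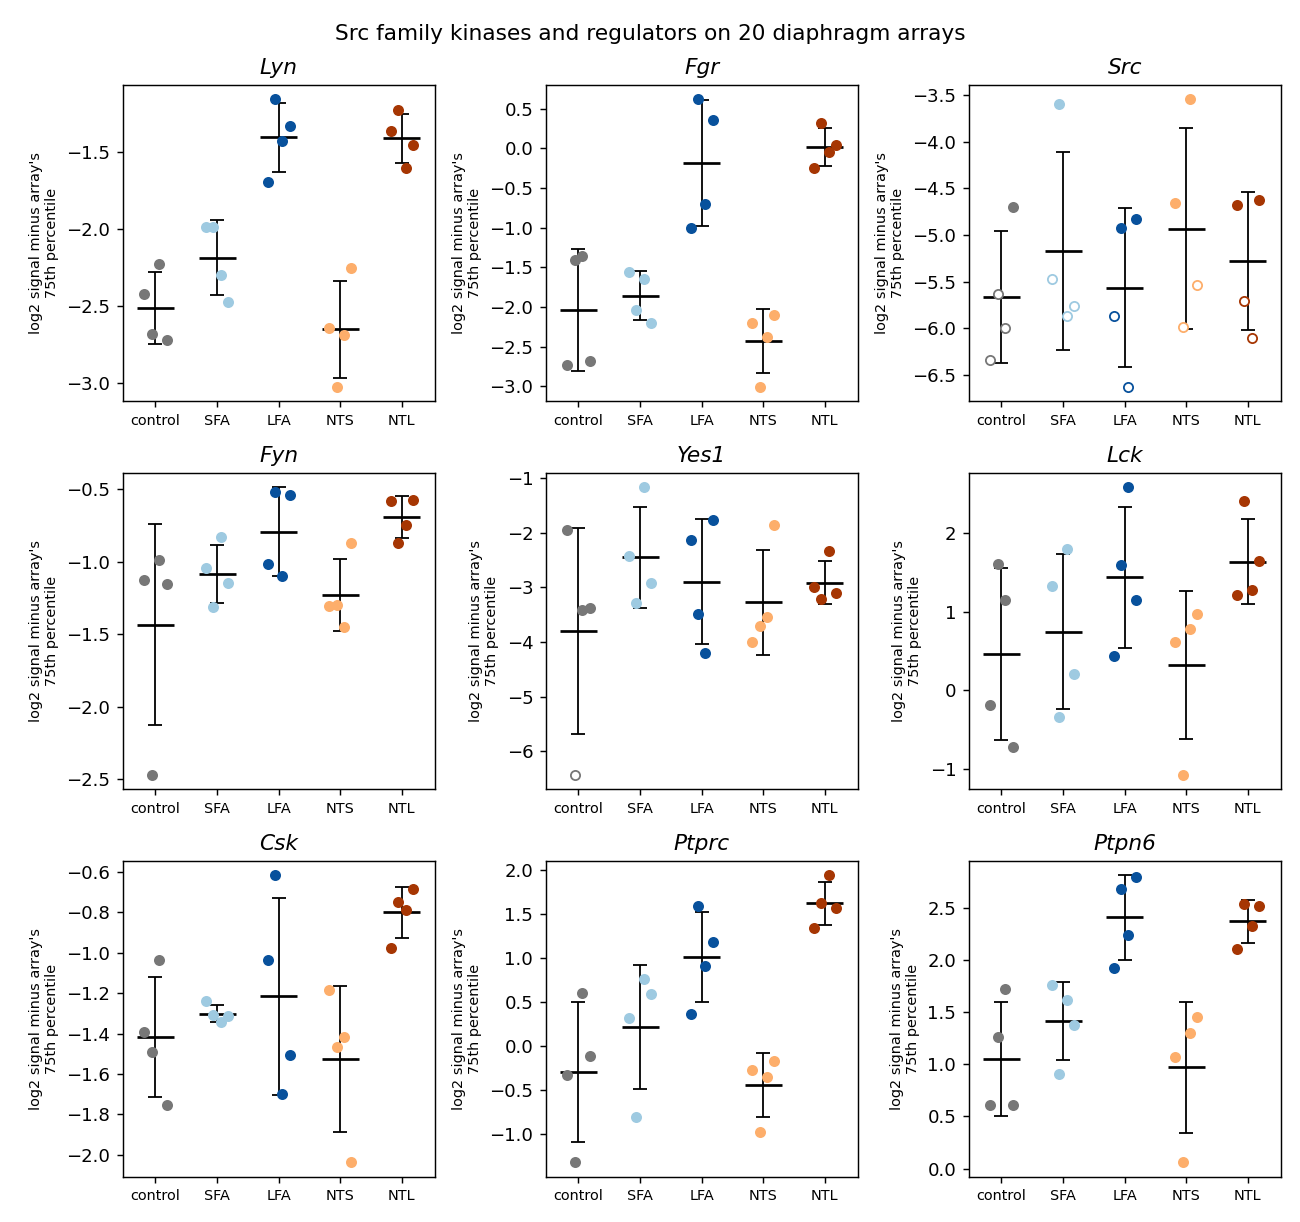
Each panel shows 1 gene, with the level on each of the 20 arrays (log2 signal minus the array's 75th percentile) by group, the mean as a line, and the SD as bars. Open circles mark arrays on which the probe was not well above background. For Lyn, Fgr, and Ptpn6 all 8 LFA and NTL arrays lay above all 12 others, and vertical scales differ between panels.

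Src, Fyn, and Yes1, the widely expressed kinases of the family, did not pass the test in any comparison. The Src probe was close to background, being well above it on 1 control array, 1 SFA array, 2 LFA arrays, 2 NTS arrays, and 2 NTL arrays. It ran from −6.34 to −4.69 in control, −5.87 to −3.60 in SFA, −6.63 to −4.83 in LFA, −5.99 to −3.54 in NTS, and −6.10 to −4.62 in NTL. All groups overlapped. The difference from control was 0.10 in LFA, with a 95% interval from −1.16 to 1.36, and 0.39 in NTL, from −0.88 to 1.65, so that neither a fall nor a rise of that size was detectable at this signal.

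Fyn, which acts in adhesion and in T cells, differed from control by 0.64 ± 0.28 in LFA (adjusted p = 0.181 in limma) and 0.74 ± 0.28 in NTL (adjusted p = 0.119 in limma). Its levels were −1.13, −2.47, −0.99, and −1.15 in control and −0.58, −0.87, −0.74, and −0.57 in NTL. The NTL arrays lay above all control arrays, but the control value of −2.47 belonged to replicate 2, and without it the differences were 0.30 in LFA and 0.40 in NTL. Fyn ran from −1.31 to −0.83 in SFA, −1.10 to −0.52 in LFA, and −1.45 to −0.87 in NTS. Yes1, a close relative of Src, read −1.95, −6.43, −3.41, and −3.38 in control, where the lowest value was again replicate 2 and was not well above background. Its means were −3.79 ± 1.89 in control, −2.45 ± 0.93 in SFA, −2.89 ± 1.15 in LFA, −3.27 ± 0.97 in NTS, and −2.91 ± 0.40 in NTL (SD, n = 4). The 0.88 between NTL and control became −0.00038 without control replicate 2, and the interval for SFA against control ran from −0.27 to 2.96.

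Lck, the kinase that starts signaling from the T cell receptor, varied as much within groups as between them. It read −0.20, 1.61, 1.14, and −0.72 in control, 1.33, −0.34, 1.79, and 0.20 in SFA, and 0.43, 1.59, 2.58, and 1.14 in LFA. In NTS it was at 0.61, −1.08, 0.78, and 0.97, and in NTL at 1.21, 2.40, 1.28, and 1.65. The NTL arrays were above all NTS arrays and overlapped control. The difference from control was 0.98 ± 0.61 in LFA (adjusted p = 0.334 in limma) and 1.18 ± 0.61 in NTL (adjusted p = 0.253 in limma), and that between NTL and NTS was 1.31 ± 0.61 (adjusted p = 0.186 in limma). The LFA difference was 0.59 without LFA replicate 3, 0.58 without control replicate 4, and 1.36 without control replicate 2.

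Of the regulators, Ptpn6 rose with both long fibers and Ptprc with NTL, and Csk was not shown to change. Ptprc, the phosphatase found on all leukocytes, read −0.33, −1.33, 0.60, and −0.12 in control and 1.34, 1.63, 1.94, and 1.57 in NTL, without overlap. It rose by 1.91 ± 0.39 in NTL (3.77-fold, adjusted p = 0.00654 in limma) and was higher by 2.07 ± 0.39 in NTL than in NTS (adjusted p = 0.00290 in limma). In LFA it read 0.36, 1.59, 0.91, and 1.18, and the lowest of these lay within the control range. That difference was 1.30 ± 0.39 with an adjusted p of 0.0637 in limma, which became 0.0392 without control replicate 3, 0.0424 without SFA replicate 2, and 0.149 without control replicate 2. Ptprc was at 0.32, −0.81, 0.76, and 0.59 in SFA and at −0.28, −0.99, −0.36, and −0.17 in NTS. The lowest array was replicate 2 in control, SFA, and NTS and replicate 1 in LFA and NTL, and all of these lay on the same array slide. Whether the slide lowered them was not tested.

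Ptpn6, which carries out the signal of inhibitory receptors in myeloid and B cells, read 0.61, 1.27, 1.72, and 0.61 in control. It was at 1.92, 2.68, 2.24, and 2.80 in LFA and at 2.10, 2.54, 2.33, and 2.52 in NTL. Every long-fiber array lay above control, and above SFA (1.76, 0.91, 1.62, and 1.37) and NTS (1.07, 0.06, 1.30, and 1.46) as well. It rose by 1.36 ± 0.33 in LFA (2.57-fold, adjusted p = 0.0288 in limma) and 1.32 ± 0.33 in NTL (2.50-fold, adjusted p = 0.0203 in limma), and was 1.40 ± 0.33 higher in NTL than in NTS (adjusted p = 0.0128 in limma). Each call against control depended on 4 single arrays. The adjusted p for LFA was 0.0809 without control replicate 1, 0.0755 without control replicate 4, 0.0853 without LFA replicate 2, and 0.0829 without LFA replicate 4, and that for NTL was 0.0615, 0.0605, 0.0514, and 0.0620 without control replicates 1 and 4 and NTL replicates 2 and 4.

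Csk, the inhibitory kinase, read −1.39, −1.49, −1.04, and −1.75 in control, −1.03, −0.62, −1.70, and −1.51 in LFA, and −0.98, −0.75, −0.79, and −0.68 in NTL. The LFA arrays spanned the control range, while those of NTL all lay above it. The difference was 0.20 ± 0.25 in LFA, with a 95% interval from −0.32 to 0.73, and 0.62 ± 0.25 in NTL, from 0.10 to 1.14 (adjusted p = 0.137 in limma). Between NTL and NTS it was 0.73 ± 0.25 with an adjusted p of 0.0761 in limma, and it passed in 1 of 29 alternatives, quantile normalization (0.0232), while slide as a block gave 0.31 (adjusted p = 0.481 in limma).

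Against control, 3 of the 9 genes rose in LFA (Lyn, Fgr, and Ptpn6), where 2.28% of all tested probes did, and 4 of 9 rose in NTL (the same with Ptprc), where 3.81% did. All these changes exceeded 2-fold, and no member fell, against 2.06% of all probes in LFA and 4.04% in NTL. The median difference of the 9 genes was 0.98 in LFA and 1.10 in NTL. The groups did not overlap, with the fiber group higher, for 3 of 9 genes in LFA (4.6% of all probes) and 6 of 9 in NTL (6.34%), the additional ones being Fyn, Csk, and Ptprc. Both comparisons use the same control arrays. Because the members were chosen with earlier results of these data known, these counts beside the shares of all probes are descriptive. All LFA and NTL arrays lay above every other array for 3 of the 9 genes, Lyn, Fgr, and Ptpn6, and for 1.43% of all probes.

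With short fibers, limma called 0 of 9 genes in SFA and 0 of 9 in NTS, as it did 0% of all probes in each, and 0 of the 9 had an unadjusted p under 0.05 in either group (2.28% and 3.49% of all probes did). The differences ran from 0.12 (Csk) to 1.34 (Yes1) in SFA and from −0.38 (Fgr) to 0.73 (Src) in NTS. The 95% intervals for Fgr were −0.63 to 0.99 in SFA and −1.20 to 0.43 in NTS, and those for Lyn were −0.12 to 0.78 and −0.59 to 0.32.

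**Figure D2:**
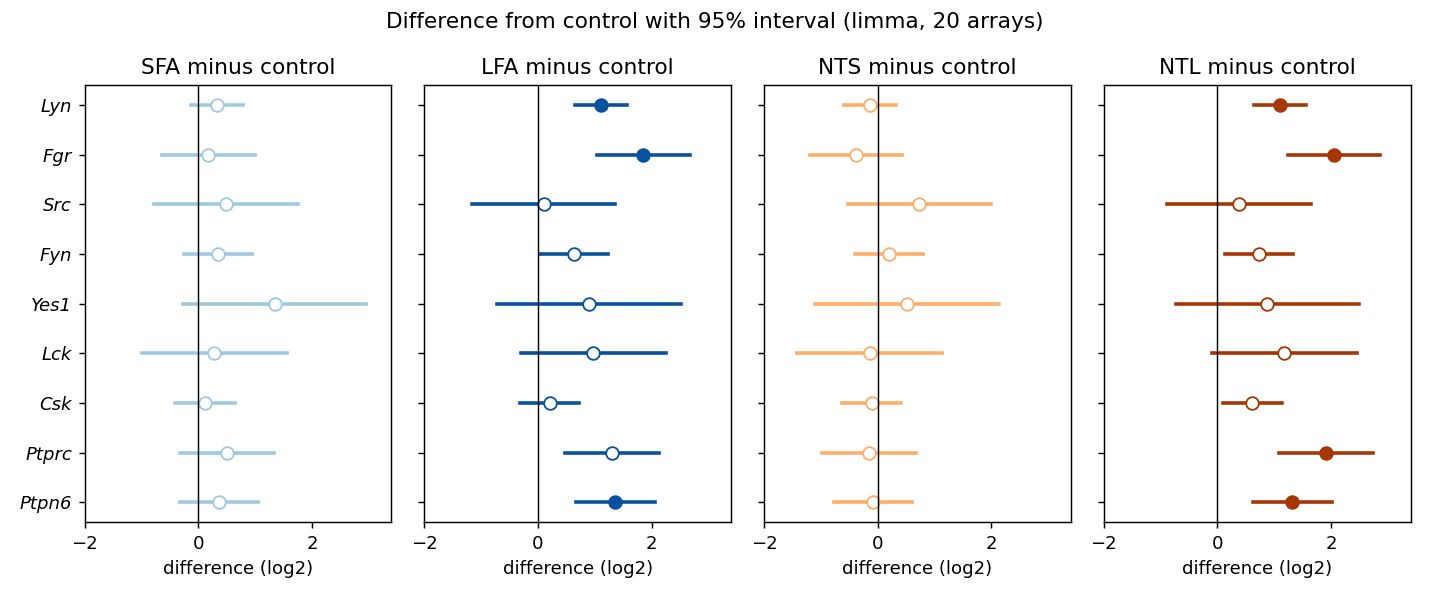
Differences from control (log2) for the 9 genes in each fiber group, with 95% intervals from the limma fit of all 20 arrays. Filled circles passed at an adjusted p under 0.05, which were 3 genes in LFA, 4 in NTL, and none in SFA and NTS.

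Fiber length was compared within each material. LFA was higher than SFA for 1 of 9 genes, Fgr, where 1.03% of all probes were higher, and the groups did not overlap for Lyn, Fgr, and Ptpn6 (3 of 9, and 3.15% of all probes). NTL was higher than NTS for 4 of 9 genes, Lyn, Fgr, Ptprc, and Ptpn6, where 5.22% of all probes were, and did not overlap with it for these, Lck, and Csk (6 of 9, and 7.61% of all probes). NTL and NTS had only 1 array slide in common, so length and slide cannot be fully separated here (values by slide are below). The length difference in nanotubes minus that in asbestos was above 0 for all 9 genes by estimate, from 0.04 for Src, whose length differences were −0.35 and −0.39, to 1.27 ± 0.56 for Ptprc. However, limma's test of that difference called 0 of 9 genes and 0% of all probes. At an unadjusted p under 0.05 it found 1 of the 9, Ptprc (3.45% of all probes). Directly between the long fibers, limma called 0 of 9 genes and 0% of all probes, and 0 of the 9 had an unadjusted p under 0.05 (1.55% of all probes). The largest of these differences was that of Ptprc, at −0.61 for LFA minus NTL with an interval from −1.44 to 0.22, while Lyn differed by 0.01, from −0.45 to 0.46. In the order of group means, NTS, control, and SFA came lowest for Lyn, Fgr, Lck, Csk, Ptprc, and Ptpn6, and no neighboring pair among these 3 or between LFA and NTL passed a test where one was made. In limma's test over the 5 groups at once, Lyn (adjusted p = 0.00109), Fgr (0.000625), Ptprc (0.00769), and Ptpn6 (0.0112) passed, 4 of 9 genes against 6.85% of all probes.

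The arrays lay on 3 slides, and the differences could be read within each slide that held both groups. All 9 genes were higher in NTL than in control on both slides that held NTL, and all but Src, Yes1, and Lck were higher in LFA on all 3 slides. Lyn was higher in LFA by 0.86 to 1.34, Fgr by 1.06 to 2.50, Ptprc by 0.99 to 1.19, and Ptpn6 by 0.96 to 1.91. In NTL the within-slide values were 0.80 and 1.19 for Lyn, 1.46 and 1.82 for Fgr, 1.11 and 2.17 for Ptprc, and 0.74 and 1.17 for Ptpn6, from 1 to 3 arrays per group. With slide as a block, Ptprc passed in LFA (1.19, adjusted p = 0.0487 in limma) and Ptpn6 no longer passed in NTL (1.16, adjusted p = 0.0623 in limma) or between NTL and NTS (1.20, adjusted p = 0.108 in limma). On the 1 slide that NTL and NTS shared, with 1 and 2 arrays, Lyn was higher in NTL by 1.47, Fgr by 2.36, Ptprc by 1.97, and Ptpn6 by 1.54. The slide block left 660 probes higher and 98 lower in NTL than in NTS, against 1929 and 1314 without it. Lyn, Fgr, and Ptprc still passed there (adjusted p = 0.0221, 0.0225, and 0.0245 in limma). The long-fiber arrays were also brighter at their median, as given above. With brightness as a covariate, Lyn and Fgr kept their calls against control in both groups, whereas Ptprc (1.42, adjusted p = 0.0557 in limma) and Ptpn6 (1.35, adjusted p = 0.0607 in limma) in NTL and Ptpn6 in LFA (1.38, adjusted p = 0.0505 in limma) did not.

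**Figure D3:**
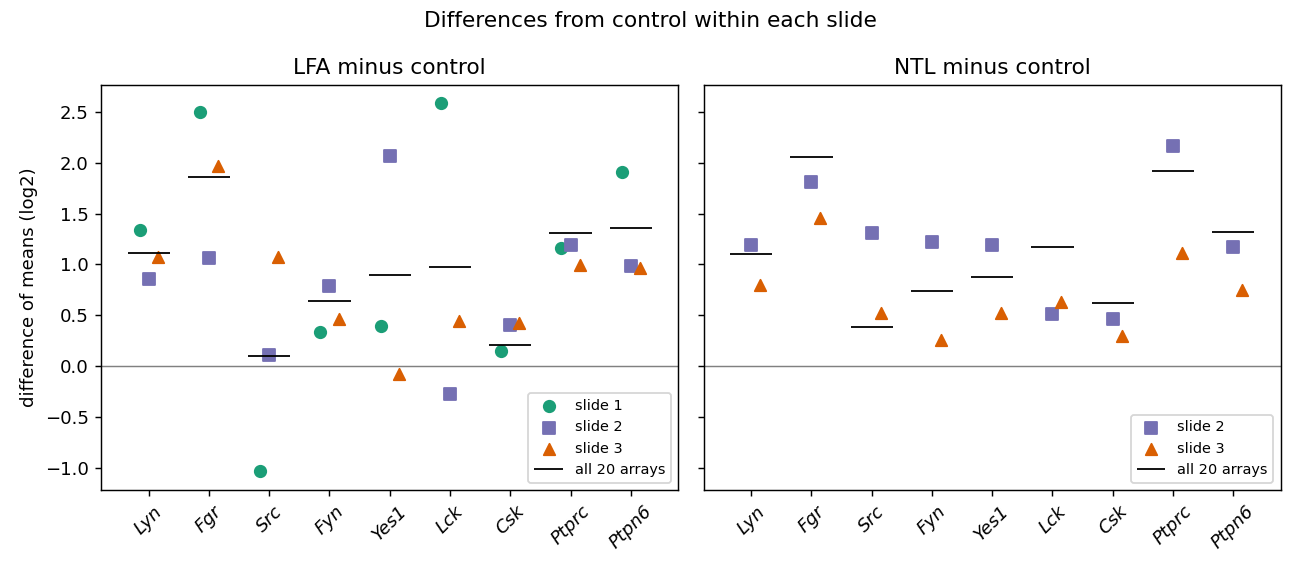
Difference of group means (log2) from control for the 9 genes, computed within each slide that held both groups (symbols) and over all 20 arrays (lines). All 9 genes were above 0 on both slides in NTL, whereas in LFA Src, Yes1, and Lck lay on both sides of 0 and the other genes above it.

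Because Ptprc is carried by all leukocytes, the other 8 genes were also set relative to it on each array. The change in Fgr minus that in Ptprc was 0.55 in LFA (p = 0.371) and 0.14 in NTL (p = 0.914), and for Ptpn6 it was 0.06 (p = 0.943) and −0.59 (p = 0.257), by an exact two-sided permutation test. For Lyn it was −0.19 in LFA (p = 0.686) and −0.81 in NTL (p = 0.0571) by the same exact permutation test, with 3 NTL arrays below all control arrays. Relative to Ptprc, Fyn was lower in NTL by 1.17 and Csk by 1.29, each with the smallest p that 4 against 4 arrays allow (0.0286, exact permutation test). Neither fell by itself, as Fyn was 0.74 and Csk 0.62 above control in NTL while Ptprc rose by 1.91. A value relative to Ptprc thus also carries the change of Ptprc, and for a gene made outside leukocytes it is not a level per leukocyte. The lowest adjusted p over the 32 comparisons, 8 genes in 4 fiber groups, was 0.457, but with this smallest p the adjustment could be passed only if most of them reached it.

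Further, 5 lists of genes around the Src family were read from the same fit (adjusted over all probes). Of their 75 tested genes 17 rose in LFA and 27 in NTL, with 0 falling in either. Over all tested probes 2.28% rose in LFA and 3.81% in NTL, and 2.06% and 4.04% fell. The lists were chosen with earlier results of these data known, so their counts are descriptive. Among Csk relatives, adaptors, and negative regulators, 1 of 13 rose in LFA and 4 of 13 in NTL, with Dok2, an adaptor that restrains kinase signaling, at 1.22 ± 0.28 and 1.47 ± 0.28. Of the other phosphatases, 1 of 6 rose in each, Ptpre, which can activate Src kinases, by 1.42 ± 0.35 and 1.71 ± 0.35.

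Receptors that signal through Src family kinases held the largest changes among the named genes of these lists. Of the inhibitory receptors that carry an ITIM, a motif that can bind Ptpn6, 6 of 14 rose in LFA and 8 of 14 in NTL. Whether each of these receptors acts through Ptpn6 was not tested. Fcgr2b, the inhibitory Fc receptor, rose by 2.98 ± 0.54 in LFA and 3.22 ± 0.54 in NTL, Lilrb4 by 2.73 ± 0.39 and 3.12 ± 0.39, Cd72 by 2.28 ± 0.56 and 2.70 ± 0.56, and Pilra by 1.89 ± 0.25 and 1.78 ± 0.25. Of the activating receptor subunits that carry or pair with an ITAM, which Src family kinases phosphorylate, 5 of 13 rose in LFA and 7 of 13 in NTL. Trem2, a lipid-sensing receptor of macrophages, rose by 3.54 ± 0.39 and 4.34 ± 0.39, Clec7a, the receptor for fungal glucans, by 3.10 ± 0.42 and 3.57 ± 0.42, and the Fc receptors Fcgr4 by 3.09 ± 0.53 and 3.50 ± 0.53 and Fcgr1 by 2.59 ± 0.52 and 2.84 ± 0.52. The T cell receptor subunit Cd3e in the same list, named after its values were seen, differed by −0.06 ± 0.45 in LFA and 0.17 ± 0.45 in NTL (adjusted p = 0.940 and 0.861 in limma). It does not stand for all T cell genes. A list of 9 T cell markers that holds Cd3e had median differences of 0.52 in LFA and 1.09 in NTL.

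Of 29 kinases and adaptors that Src family kinases act on, 4 rose in LFA and 7 in NTL. They included Lcp2, an adaptor of leukocyte receptors (1.65 ± 0.42 and 1.55 ± 0.42), Vav1, an exchange factor for small GTPases (1.43 ± 0.37 and 1.76 ± 0.37), Btk, a kinase of B cells and myeloid cells (1.40 ± 0.33 and 1.55 ± 0.33), and Plcg2, a phospholipase (1.19 ± 0.32 and 1.39 ± 0.32). Syk, the kinase that binds phosphorylated ITAMs, differed by 1.05 ± 0.38 and 1.12 ± 0.38 without passing (adjusted p = 0.110 and 0.0768 in limma). In SFA and NTS 0 of the 75 genes rose or fell in limma. The median difference in LFA and NTL was 0.91 and 1.12 for the Csk list, 0.42 and 0.54 for the phosphatases, 1.25 and 1.56 for the ITIM receptors, 1.38 and 1.99 for the ITAM subunits, and 0.53 and 0.57 for the targets. All lay above the medians over all tested probes given above.

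**Figure D4:**
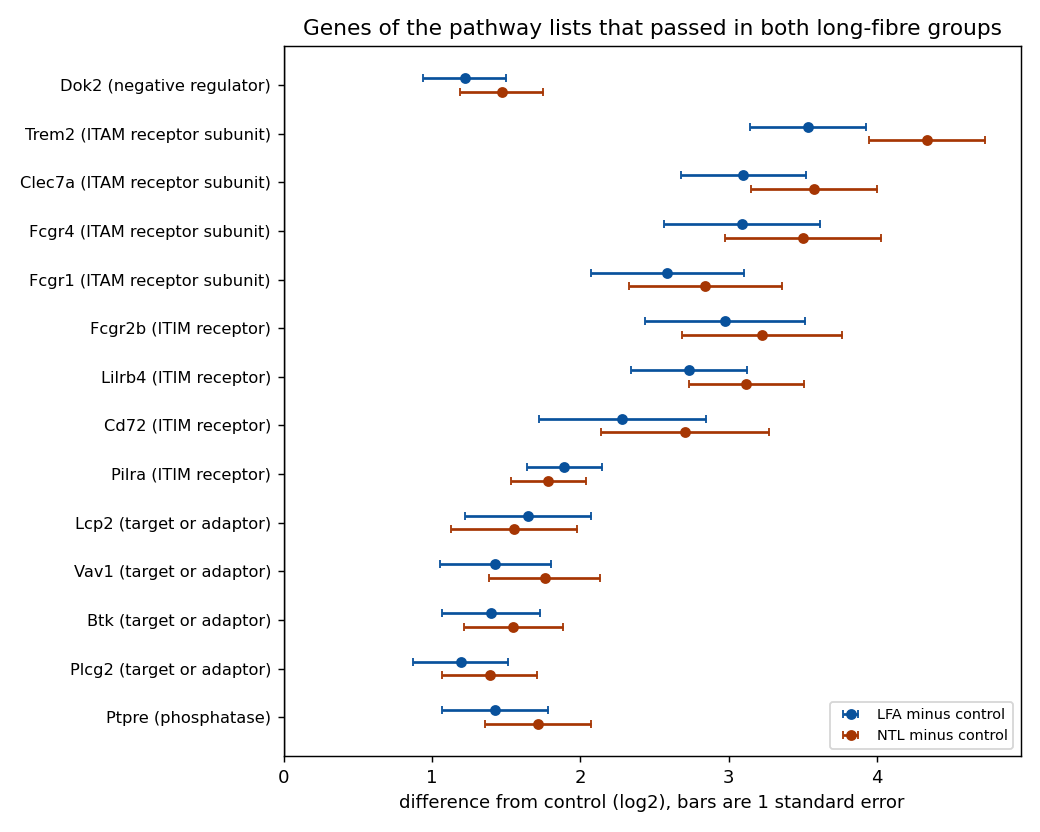
Differences from control (log2, bars 1 SE) in LFA and NTL for the genes of the 5 lists that passed in both groups, up to 4 per list. Trem2 was highest at 3.54 in LFA and 4.34 in NTL, and all values were above 1.

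Markers of macrophages moved with these genes. Of 10 macrophage markers, 8 rose in LFA and 9 in NTL (2.28% and 3.81% of all tested probes did), among them Cd68 by 1.95 ± 0.34 and 2.39 ± 0.34. Their summed level, in multiples of the array's 75th percentile signal, was 56.4 to 88.7 in control, 60.2 to 89.8 in SFA, 56.8 to 89.6 in NTS, 136 to 246 in LFA, and 213 to 273 in NTL. The 2 LFA arrays with lower sums, replicates 1 and 3, were those with the lower Fgr, Ptprc, Ptpn6, Lyn, Fyn, and Src. This did not hold for Yes1, Lck, and Csk. The same 2 arrays had the higher summed liver levels, 1844 and 2834, against 8.07 and 6.50 in replicates 2 and 4. What this split follows was not tested. Of 9 T cell markers 0 rose in LFA and 1 in NTL, of 9 B and plasma cell markers 0 and 1, of 10 neutrophil markers 1 and 0, and of 6 NK cell markers 0 and 0. Of 7 fibroblast markers 1 rose in LFA and 5 in NTL, and of 10 skeletal muscle markers 5 and 6 fell (2.06% and 4.04% of all tested probes did). The summed muscle level was 4175 to 6671 in control, 2279 to 3034 in LFA, and 2210 to 2706 in NTL. Markers of endothelium, mesothelium, platelets, and liver had 0 genes that rose or fell in LFA or NTL in limma, although the summed liver level ran from 5.38 to 5028 over the arrays. For platelets the sums were 22.6 to 40.7 in control, 33.5 to 73.9 in LFA, and 40.6 to 53.2 in NTL, with overlap. That list's median differences from control were −0.27 in LFA and −0.10 in NTL. The summed endothelial level was 31.5 to 44.7 in control and lower without overlap in LFA (22.7 to 30.1) and NTL (21.3 to 31.2), and the summed T cell level was 8.67 to 16.2 in control, 12.0 to 20.7 in LFA, and 16.5 to 21.7 in NTL. Every marker on the array was well above background on at least 1 array. The part of these cell types in the differences of the 9 genes was not tested.

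Over the 20 arrays, the probes most like each kinase fell into different sets. Among 18668 gene symbols, Fgr was most like Vav1 (r = 0.978) and Nckap1l (r = 0.978), and among the genes closest to the others were Csf2rb for Lyn (r = 0.956) and Mcoln2 for Ptpn6 (r = 0.967). These correlations use the group differences as well, and after the group means were removed they were 0.916 and 0.898 for Fgr, 0.648 for Lyn, and 0.911 for Ptpn6. Ptprc was most like Sla (r = 0.948, and 0.838 after removal), which encodes an adaptor that restrains receptor signaling in lymphocytes, and Ly9 (r = 0.941, and 0.808). Lck followed Ms4a4b (r = 0.975, and 0.981 after removal) and Txk (r = 0.973, and 0.973), both genes of T cells and NK cells, mostly within groups. Yes1 followed Eif3a (r = 0.951) and Taf5 (r = 0.941), Fyn 4930503L19Rik (r = 0.924) and Pabpc1 (r = 0.923), Csk Zc3h12a (r = 0.918) and Wdfy1 (r = 0.867), and the dim Src probe Pisd-ps2 (r = 0.821) and 4933430H15Rik (r = 0.796). Among the members themselves, Fgr and Ptpn6 were the closest pair, at 0.950 over the arrays and 0.849 after removal. All points share the scaling and brightness of their array.

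The promoters of 3 of the 4 genes that rose in NTL are shown because these genes moved together, with the 250 bases before the start from RefSeq (GRCm38.p6). The letters GAGGAA, part of the site bound by PU.1 and other ETS factors of leukocytes, are in capitals. Lyn was not in the table of promoters. They were searched on both strands from 250 bases before to 50 bases after the start, where 28.3% of 32851 promoters held them. The Ptprc promoter (chr1:138175306-138175555, minus strand) had them from base −158, counted from the start, and the other of its 2 starts in the table had none. Those of Fgr (chr4:132973845-132974094, plus strand) and Ptpn6 (chr6:124738710-124738959, minus strand) did not have them in these bases, though Fgr had them on the other strand at base 32 after the start. Of the other members, Src, Lck, and Csk had the letters at 1 start or more and Fyn and Yes1 did not. A match is a description of the letters only.
Ptprc: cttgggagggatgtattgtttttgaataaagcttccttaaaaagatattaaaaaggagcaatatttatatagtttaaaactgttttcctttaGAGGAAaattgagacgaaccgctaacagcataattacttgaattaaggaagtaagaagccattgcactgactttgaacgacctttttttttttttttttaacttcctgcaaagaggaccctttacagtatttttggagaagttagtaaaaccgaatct
Fgr: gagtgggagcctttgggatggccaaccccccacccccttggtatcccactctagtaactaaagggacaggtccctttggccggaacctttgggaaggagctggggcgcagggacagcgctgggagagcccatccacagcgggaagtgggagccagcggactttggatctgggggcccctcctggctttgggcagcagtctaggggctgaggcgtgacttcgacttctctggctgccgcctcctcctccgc
Ptpn6: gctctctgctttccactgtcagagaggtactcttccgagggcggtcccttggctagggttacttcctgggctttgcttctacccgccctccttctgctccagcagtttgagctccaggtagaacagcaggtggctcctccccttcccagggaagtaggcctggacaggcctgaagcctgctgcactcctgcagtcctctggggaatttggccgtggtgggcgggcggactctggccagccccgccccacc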

How the data were processed

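Single-dye arrays of diaphragm RNA from 20 mice were deposited by the authors as output of Agilent Feature Extraction (version 10.7.3.1, per the labels), in which a spot's value is an intensity after background subtraction. The authors also deposited a table of normalized log2 values with 1 mean per group, which gave fold values only and no test.

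Outlier spots (92 to 204 per array) were left out, 0 spots were saturated, and 59305 noncontrol spots were averaged into 55681 probes. From the log2 intensity, that of the array's 75th percentile over noncontrol spots was subtracted. Probes well above background on at least 4 of 20 arrays were tested with limma (3.58.1, R 4.3.3), with 1 mean per group over all arrays, moderated variances, and Benjamini-Hochberg adjustment over 36920 probes. The steps were checked on simulated data. Reference tables served for promoter sequence only. A gene in the lists is represented by its brightest probe, and 1 neutrophil marker with a missing value (Elane) was left out of the sums.

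The members and lists were chosen with earlier results of these data known. Named were the 9 members, up to 4 genes per list that rose most in both long-fiber groups (none fell), and the 2 genes most correlated with each member. Some of these are not reported here. Syk, Cd3e, and Cd68 were named after their values were seen. The alternatives were quantile normalization, normexp (offset 50), testing every probe or those above background on all 20 arrays, slide, replicate number, or brightness in the fit, only the groups compared, a 2-fold limit, and leaving out each array. Each scan was 1 slide, so scan was not fitted separately. The number of arrays limits the precision.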

Additional observations from a re-analysis of the deposited data

Results flagged for a closer look

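Fyn in control replicate 2 stood far from the other control mice. Its level was −2.47, and the nearest control array was at −1.15, a gap of 0.889 of the whole range, which is past Dixon's 95% limit for 4 samples. It was the only 1 of 45 combinations of gene and group past that limit, which chance alone passes in about 1 in 20 groups. The same array had the lowest brightness of all 20 and also held the lowest Yes1 and Ptprc levels of the control group, while its Lck was the highest.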

How the results depend on the processing

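Over 29 alternatives with a test, Lyn and Fgr in NTL against control and against NTS passed in all 29, and no difference of a called gene changed sign. The number of the 9 genes that passed in LFA against control was 0 with only the groups compared and ranged from 1 to 4 with each array left out, the lowest without LFA replicate 2. In NTL against control it was 2 with brightness as a covariate and ranged from 3 to 4 with arrays left out. In NTL against NTS it was 2 with brightness, 3 with slide as a block or only the groups compared, and stayed at 4 with each array left out. In LFA against SFA it was 0 under quantile normalization, no filter, slide as a block, brightness, and only the groups compared, and from 0 to 1 with arrays left out (0 without any SFA array, LFA replicates 2 and 4, NTS replicate 3, and NTL replicates 1, 3, and 4). The cause was not tested. In all other comparisons it stayed at 0 throughout. Without control replicate 2, LFA replicate 3, and NTS replicate 4 together, an alternative added after seeing the data, 3 genes passed in LFA, 4 in NTL, and 5 in NTL against NTS, where Fyn was added. Relative to Ptprc, 6 of 32 comparisons reached an unadjusted exact p under 0.05 with normexp and 2 in the other settings with all arrays, and from 1 (without NTL replicate 3) to 4 (without control replicate 2) did with each array left out.

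The study's methods give the arrays as separate animals, and the replicate numbers were not seen to pair them. Same-numbered arrays of different groups had correlations of their deviations from −0.676 to 0.689 over 40 pairs, with 14 above 0.1. Differently numbered ones ran from −0.733 to 0.731 over 120 pairs, with 54 above 0.1. These ranges alone cannot show that pairing is absent. With replicate number as a block, 0 genes passed between LFA and SFA, 3 in LFA and 4 in NTL against control, and 4 between NTL and NTS, so that only the Fgr call between LFA and SFA was lost (adjusted p = 0.0704 in limma). The authors' table of group means could not give such counts. Averaging probes changed nothing for genes with 1 probe. Over all probes, quantile normalization gave 1058 higher and 470 lower in LFA and 1759 and 928 in NTL, against 842 and 761 and 1405 and 1490. With normexp these were 853 and 1803 and 1254 and 2644. Over all alternatives the counts ranged from 344 and 123 (without LFA replicate 2) to 1166 and 2075 (without NTS replicate 4) in LFA, and from 851 to 1759 higher and 412 to 2644 lower in NTL, so the shares of all probes called move with them. For Src, whose probe was near background, and for Yes1, the array signal limits what could be seen.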
